A study of Rattus norvegicus with 16 samples.

Results

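The comparison set the microglial RNA of 4 samples from sham-irradiated rats given lipopolysaccharide (LPS) beside that of 4 samples from irradiated animals given vehicle, 8 of the 16 libraries of the study. Members were chosen by their titles alone, so no measured value entered the choice. The first group, called sham LPS, received no X-rays and an intraperitoneal injection of LPS at 6 weeks after the sham procedure. The second, called irradiated PBS, received 14 Gy of X-rays and an intraperitoneal injection of phosphate-buffered saline (PBS) at 6 weeks. Unirradiated animals injected with PBS (sham PBS, 4 libraries) served as the reference level, and the remaining group, which received both agents, entered the model fit but no comparison. All animals were male rats of the Wistar stock Hsd/Cpb:WU, and microglia were dissociated mechanically from whole brain in the cold and collected by flow sorting on CD11b (high) and CD45 (intermediate) after dead, DAPI-stained cells were gated out. LPS dose, the interval between injection and collection, and rat age are not given in the labels. Nothing in the labels ties a library to one animal or culture, so p-values here measure the spread between these samples, which may be technical in part. The 2 groups differ in irradiation and in the injection at once, so the direct difference cannot be assigned to either agent alone, and the sham PBS values beside it show from which side it came.

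Microglia are the resident macrophages of the brain parenchyma. LPS is a cell wall component of Gram-negative bacteria that is recognised through LPS-binding protein, CD14 and the TLR4 complex, which signal through MyD88 to NF-kB and through a second adaptor to interferon regulatory factors. Given into the abdomen, it also raises circulating cytokines and glucocorticoids that reach the brain. Ionising radiation damages DNA, and weeks after exposure microglia are known to carry what is called a primed or disease-associated profile, in which phagocytic, lysosomal and antigen-presentation genes are high and homeostatic genes are low. Whether these are positions on one scale of activation or separate states is the question the pairing of libraries addresses.

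Sham LPS libraries held 16257030 to 19415389 counts each, irradiated PBS libraries 13990623 to 24444248 and sham PBS libraries 16523044 to 22063345. Replicates within a group correlated at 0.949 to 0.973 over log2 CPM (read counts scaled to a common library size), and every replicate pair differed by more than sampling noise. The homeostatic microglial list was abundant in all 12 libraries, although Siglech and Crybb1, which mark microglia in mice, stayed under 1 CPM in each of them. Lists of markers for other cells the gate could hold differed in level. Summed border-associated macrophage markers came to 577 to 1174 CPM in sham LPS, 1512 to 1899 CPM in irradiated PBS and 553 to 635 CPM in sham PBS, with Clec4n at 0 in all 12 libraries. Summed monocyte markers came to 2932 to 3991, 14032 to 20929 and 2997 to 4468 CPM in the same order, most of it the lysozyme gene Lyz2, with the monocyte and macrophage lectin Chi3l3 at 0. Summed T and NK cell markers came to 52.1 to 330.4, 162 to 418 and 33.2 to 63.5 CPM. Within their groups, neural transcripts by mean log2 CPM were highest in irradiated PBS library 1 and sham LPS library 2. The oligodendrocyte list was at 4.73 and 3.91 there, and the neuron list at 2.32 and 1.00. On the neuron list irradiated PBS library 4 (1.03) and sham LPS library 1 (0.85) came next. By summed CPM of that list sham LPS library 1 (41.1) was level with library 2 (40.2). Results were also computed without irradiated PBS library 1 and sham LPS library 2, called the neural-rich libraries, which leaves those next libraries in. In bulk RNA fewer cells of a type and less RNA per cell cannot be told apart.

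**Figure D1:**
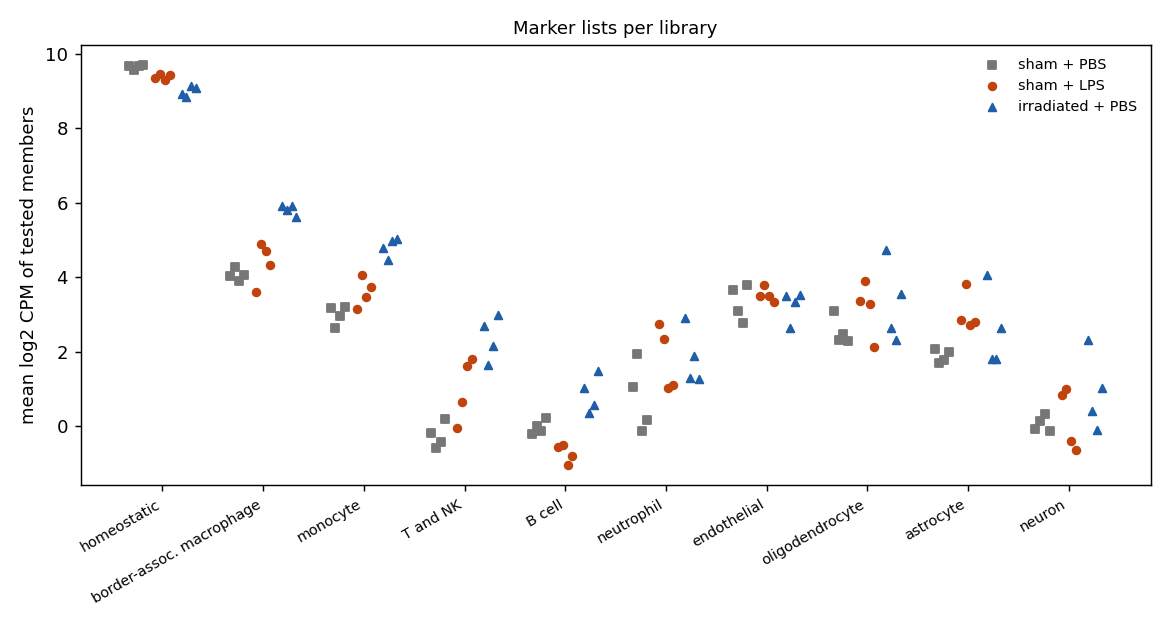
Mean log2 CPM of the tested members of each marker list (vertical axis) in every library of sham PBS (grey squares), sham LPS (orange circles) and irradiated PBS (blue triangles), with replicates 1 to 4 from left to right. Border-associated macrophage and monocyte markers sit higher in the 4 irradiated PBS libraries than in the 4 sham LPS libraries, and oligodendrocyte and neuron markers are highest in irradiated PBS library 1.

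The states differed in a large share of expressed genes. Of 12308 genes tested, 4748 differed between sham LPS and irradiated PBS at an adjusted p under 0.05 (38.6%). Of these, 2407 were higher in sham LPS (19.6% of genes tested) and 2341 in irradiated PBS (19%). Counts of list members called between the states, where no share is printed beside them, stand against these 19.6% and 19%. Differences of at least 2-fold numbered 1051 genes on the irradiated side (8.54%) and 591 on the LPS side (4.8%). TMM, the scaling used, sets the bulk of genes to no change. Scaled by library totals alone, the median over all genes moved from -0.03 to -0.23 and the calls split into 1505 higher in sham LPS and 3549 higher in irradiated PBS, so directions below are relative to the TMM baseline. No overlap between the 4 libraries of each side was seen for 2214 genes with sham LPS above (18%) and 2266 with irradiated PBS above (18.4%). The 95% interval of the difference lay within a 2-fold change for 6590 genes. That count includes called genes with small differences, such as Csf1r (interval 0.50 to 0.79).

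The 2 treated groups lay on opposite sides of sham PBS along the first principal component and on the same side of it along the second. On the first principal component of the 500 most variable genes, which held 41.4% of the variance, sham LPS libraries scored from 23.9 to 33.1, sham PBS libraries from 2.74 to 7.59 and irradiated PBS libraries from -36.6 to -32.3. The second component (25.1%) set both treated groups, at 8.71 to 21.3 and 4.10 to 20.1, apart from sham PBS at -36.5 to -22.9. Over all genes tested the root mean square log2 difference between group means was 0.838 for sham LPS against sham PBS, 0.840 for irradiated PBS against sham PBS and 0.978 between the treated groups.

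**Figure D2:**
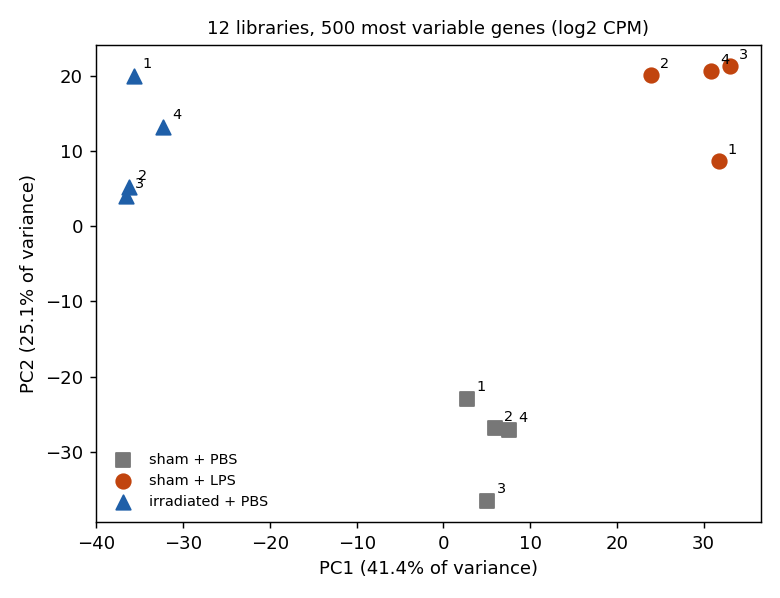
Scores of the 12 libraries on the first and second principal components of log2 CPM over the 500 most variable genes, with the share of variance on each axis and the replicate number beside each point. Sham LPS (orange circles) and irradiated PBS (blue triangles) fall at opposite ends of the first component, and sham PBS (grey squares) is separated from both on the second.

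When genes had to average 3 or more on the log2 CPM scale, be called and not overlap between the groups, the largest difference toward LPS was in Arc, an activity-regulated cytoskeletal gene best known from neurons, at 142, 158, 176 and 165 CPM in sham LPS libraries 1 to 4 and 2.22, 0.284, 0.0491 and 0.632 CPM in irradiated PBS libraries 1 to 4. Sham PBS libraries held 0.311, 0.613, 0 and 1.46 CPM, so the transcript was near 0 in both groups without LPS and high in the 4 with it (log2 difference of sham LPS minus irradiated PBS 7.75 ± 0.66 SE, edgeR adjusted p = 6.6e-07). Socs3, the feedback inhibitor of STAT3 signalling, followed at 767, 646, 955 and 629.9 CPM against 29.1, 16.9, 17.1 and 19.2 CPM, a 36.5-fold difference. Id1 (a dominant-negative helix-loop-helix protein, log2 difference 4.92 ± 0.38), Fkbp5 (4.05 ± 0.33), Bcl3 (3.87 ± 0.24), Jam2 (3.60 ± 0.24), Tnf (3.34 ± 0.35), Strip2 (3.22 ± 0.15), Egr1 (3.09 ± 0.29), the potassium channel Kcnj15 (3.08 ± 0.25), AC128848.1 (3.08 ± 0.21) and Zfp36 (3.06 ± 0.13) completed the 12 largest. Of these, Id1, Jam2 and Kcnj15 were moved in opposite directions by the treatments: Id1 rose by 3.51 after LPS and fell by 1.41 after irradiation relative to sham PBS, and Jam2 by 1.35 and 2.25, on the log2 scale.

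By the same rule the 12 largest differences on the irradiated side were in Rgs18 (a regulator of G-protein signalling, -5.15 ± 0.36), the endosomal RNA receptor Tlr8 (-5.01 ± 0.48), Gpnmb (-4.63 ± 0.30), Ly49si2 (-4.22 ± 0.31), RGD1565355 (-4.21 ± 0.26), Clec7a (-4.12 ± 0.27), the immunoglobulin heavy chain Ighm (-4.10 ± 0.21), Tbc1d8 (-4.03 ± 0.32), Ripor2 (-4.01 ± 0.39), the urokinase gene Plau (-3.92 ± 0.26), AABR07030773.1 (-3.88 ± 0.37) and the receptor tyrosine kinase Axl (-3.86 ± 0.24). Tlr8 stood at 169, 143, 121 and 112 CPM in irradiated PBS and at 1.12, 8.03, 6.31 and 1.29 CPM in sham LPS. Sham PBS held 17.1 ± 3.17 CPM (mean ± SD, n = 4), so Tlr8 rose after irradiation and fell after LPS. Rgs18, AABR07030773.1, Tbc1d8, Axl and Ighm had the same pair of directions relative to sham PBS. Ly49si2 belongs to a family of near-identical receptor genes between which counting may split reads, so its value is uncertain.

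**Figure D3:**
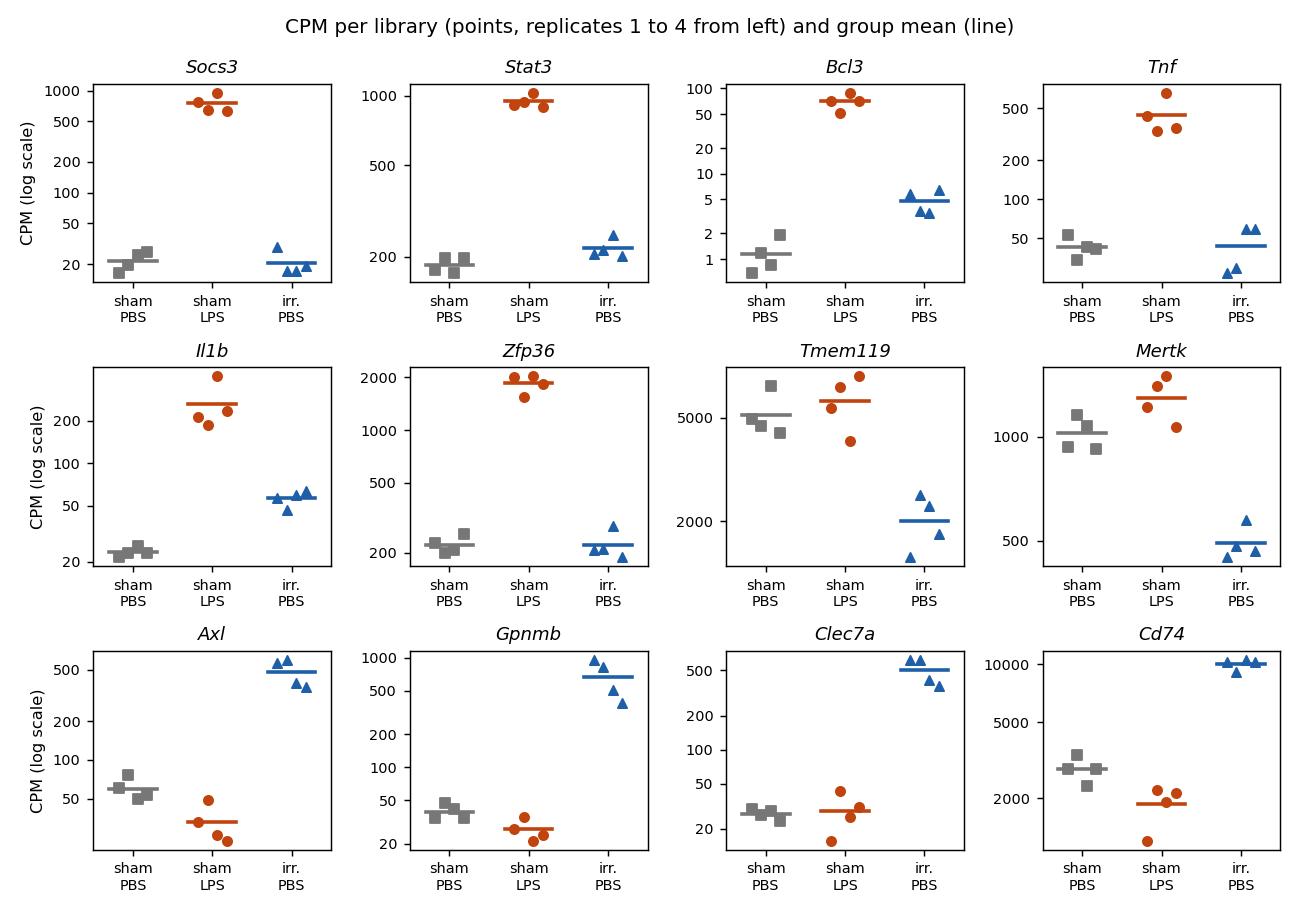
CPM (log axis) of 12 genes in each library of sham PBS (grey squares), sham LPS (orange circles) and irradiated PBS (blue triangles), with the group mean as a line. The 6 genes from Socs3 to Zfp36 are high in the sham LPS libraries, Tmem119 and Mertk are low in the irradiated PBS libraries, and Axl, Gpnmb, Clec7a and Cd74 are high in the irradiated PBS libraries.

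Genes that recognise LPS were split between the states. Of 18 tested, 7 were higher in sham LPS (38.9%, beside 19.6% of all genes) and 5 in irradiated PBS (27.8%, beside 19%). The median log2 difference of 0.16 became -0.03 with library totals alone, against -0.03 over all genes. The coreceptor Cd14 stood at 228, 1146, 1527 and 656 CPM in sham LPS and 113, 189, 202 and 206 CPM in irradiated PBS. The lowest sham LPS library, number 1, lay just above the highest irradiated one, and both groups lay above sham PBS (41.3 ± 17.0 CPM). Cd14 rose in both states and stood 5.01-fold higher with LPS than after irradiation (edgeR adjusted p = 0.0021). Tlr4 itself was lower in sham LPS, at 76.3, 78.2, 94.9 and 62.5 CPM against 114, 149, 109 and 107 CPM (log2 difference -0.62 ± 0.14). Aoah, the lipase that removes acyl chains from LPS and so inactivates it, stood at 8.32, 12.8, 12.8 and 9.34 CPM in sham LPS and 56.3, 54.5, 48.4 and 37.1 CPM in irradiated PBS, without overlap. Relative to sham PBS it rose by 0.53 with LPS and by 2.71 with irradiation on the log2 scale. The inhibitory kinase Irak3 was also higher after irradiation (-1.33 ± 0.33), while Map3k8, which links TLR signals to ERK, was 4.13-fold higher with LPS and Myd88 differed by 0.55 ± 0.09.

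NF-kB genes were mostly on the LPS side. 11 of 20 subunits and feedback genes were higher in sham LPS and 1, Tnip1, in irradiated PBS, and the median difference was 0.64. Against sham PBS 13 rose with LPS (15.8% of all genes did), and 4 rose with irradiation (11.8%). Nfkbia, which encodes the inhibitor IkB alpha and is itself an NF-kB target, stood at 855, 628, 635 and 829 CPM in sham LPS and 183, 196, 267 and 207 CPM in irradiated PBS. Nfkbiz, an atypical nuclear IkB, stood at 156, 132, 193 and 128 CPM against 49.9, 64.7, 48.0 and 53.6 CPM. In both genes the 4 sham LPS libraries were the higher ones, but Nfkbia after irradiation did not pass against sham PBS (0.22 ± 0.18) whereas Nfkbiz rose there by 1.36. Bcl3, another nuclear IkB, stood at 71.5, 50.9, 89.2 and 71.3 CPM in sham LPS, 5.77, 3.63, 3.49 and 6.39 CPM in irradiated PBS and 0.684, 1.18, 0.848 and 1.92 CPM in sham PBS, 3 separate ranges. The subunits differed less: Nfkb1 by 0.85 ± 0.11.

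The stretches before the start sites of Nfkbia and Nfkbiz are shown because each holds a match to the strict kB motif (in capitals, on either strand), 31 and 13 bases before the start. Sequences are RefSeq's for build GRCr8, 5′ to 3′ on the gene's own strand, at chr6:78597073-78597172 (minus strand) and chr11:58251621-58251720 (plus strand).
Nfkbia: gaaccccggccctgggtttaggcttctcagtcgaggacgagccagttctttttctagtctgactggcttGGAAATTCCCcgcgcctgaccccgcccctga
Nfkbiz: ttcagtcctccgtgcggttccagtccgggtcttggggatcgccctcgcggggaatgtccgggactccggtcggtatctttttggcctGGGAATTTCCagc
Within 250 bases upstream, 0.331% of 27457 promoters held this motif, and 4 of the 17 promoters found for the NF-kB list did (Nfkb2, Nfkbia, Nfkbiz and Tnfaip3). A match describes the letters and not a bound site.

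Inflammatory cytokines were mostly higher with LPS, with 11 of 19 higher in sham LPS and 3 higher in irradiated PBS (Il12b, Tnfsf10 and Tnfsf14, the first with a call lost in most alternatives). Tnf stood at 435, 336, 660.1 and 352 CPM in sham LPS and 27.0, 29.8, 59.2 and 59.3 CPM in irradiated PBS, where it overlapped the sham PBS range of 53.2, 34.2, 42.7 and 41.1 CPM. Il1b stood at 213, 186, 412 and 236 CPM against 56.3, 46.9, 60.0 and 63.6 CPM. Here the irradiated libraries lay between the others, above every sham PBS library (23.4 ± 1.83 CPM), and Il1b rose in both states. Il12a (log2 difference 2.79 ± 0.16), Osm (1.92 ± 0.21) and Il18 (0.77 ± 0.10) were higher with LPS too, and Il12a was the one of these that fell after irradiation (-0.52 ± 0.15). Il6 stood at 16.8, 27.6, 28.9 and 23.2 CPM in sham LPS and did not pass against sham PBS (0.52 ± 0.30), but fell after irradiation to 6.03, 3.46, 10.7 and 7.43 CPM.

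Chemokines rose with both treatments. Against sham PBS 13 of 20 rose with LPS (15.8% of all genes did) and 12 with irradiation (11.8%). Between the states 9 were higher with LPS (45%, beside 19.6% of all genes) and 4 after irradiation (20%, beside 19%). Ccl2, the monocyte attractant, stood at 42.9, 61.4, 78.2 and 62.8 CPM in sham LPS and 15.5, 17.0, 7.37 and 16.4 CPM in irradiated PBS. Cxcl10, an interferon-induced ligand of CXCR3, stood at 106, 98.5, 166 and 78.2 CPM against 17.1, 10.9, 19.8 and 19.1 CPM. Both were higher in all 4 sham LPS libraries, 4.36-fold and 6.68-fold. Cxcl9, which binds the same receptor as Cxcl10, went the other way at 0.931, 2.75, 1.29 and 3.86 CPM in sham LPS and 8.18, 10.6, 17.8 and 15.4 CPM in irradiated PBS (log2 difference -2.55 ± 0.46, adjusted p = 2.9e-04). The neutrophil attractant Cxcl2 was 5.40-fold higher with LPS, and Cxcl3 stood at 2.61, 3.20, 5.20 and 5.09 CPM there against at most 0.381 CPM after irradiation, a call lost with limma voom. Ccl5 and Ccl22 did not pass between the states, with log2 differences of -0.17 ± 0.52 and 0.25 ± 0.74. Ccl4 did not pass either (0.83 ± 0.32, adjusted p = 0.053), but it was called higher with LPS in 7 alternatives, DESeq2, the replicate block and the fit without sham LPS library 2 among them.

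The start of Cxcl10 is shown because its stretch holds letters of both pathways that LPS engages, an interferon-stimulated response motif and the loose kB motif (both in capitals). Matches to the loose kB motif include those of the strict one, but the kB letters of this stretch do not match the strict motif. It lies at chr14:15988823-15988948 on the plus strand, beginning 243 bases before the start in RefSeq GRCr8.
Cxcl10: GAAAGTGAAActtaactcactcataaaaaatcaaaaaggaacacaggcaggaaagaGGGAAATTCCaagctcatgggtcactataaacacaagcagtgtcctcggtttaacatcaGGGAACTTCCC
Among all promoters 3.61% held the first motif and 17.9% the second within 250 bases.

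STAT3 and its feedback genes were mostly higher with LPS. Of 20 tested, 13 were higher in sham LPS and 2 in irradiated PBS (Il10ra and Tyk2), and the median difference was 1.74 (1.11 in a fit of the 8 compared libraries alone). Against sham PBS the medians were 2.43 with LPS and 0.35 with irradiation. Stat3 itself stood at 915, 941, 1032 and 897 CPM in sham LPS and 206, 215, 248 and 201 CPM in irradiated PBS, which did not pass against the 185 ± 14.7 CPM of sham PBS (0.23 ± 0.08). Pim1, a kinase gene induced by STAT3, stood at 18.4, 22.6, 36.4 and 31.1 CPM against 1.27, 0.737, 1.18 and 1.23 CPM. In each, the lowest sham LPS library was well above the highest irradiated one. Receptors followed: Il4r was 6.61-fold higher with LPS and Il1r2, the decoy receptor for interleukin 1, stood at 11.5, 11.5, 18.2 and 13.1 CPM there. Osmr was at 0 in all 4 irradiated PBS libraries and at 0.434, 0.674, 0.76 and 0.28 CPM in sham LPS, at least 14.4-fold higher against a floor of 3 counts over the group. The shared receptor subunit Il6st did not pass between the states (-0.39 ± 0.18, adjusted p = 0.11), and it fell in both, by 1.60 with LPS and 1.22 with irradiation. It was called lower with LPS with library totals alone, without both neural-rich libraries (-0.61) and without irradiated PBS library 1 (-0.51).

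Immediate early genes and the factors that degrade cytokine mRNA were likewise high with LPS. 11 of 23 immediate early genes were higher in sham LPS and 1, Nr4a1, in irradiated PBS, although 12 had risen after irradiation against sham PBS as well. Zfp36, which encodes the mRNA-destabilising protein tristetraprolin, stood at 2016, 1539, 2017 and 1826 CPM in sham LPS and 206, 209.5, 283 and 189 CPM in irradiated PBS. Irradiated and sham PBS libraries overlapped, and the sham LPS libraries stood apart from both. Btg2, an antiproliferative early gene, stood at 301, 254, 306 and 295 CPM against 45.3, 41.3, 47.4 and 50.5 CPM. Egr1 was 8.51-fold and Ier3 4.95-fold higher with LPS. Nr4a1, a nuclear receptor, stood at 21.6, 14.1, 30.4 and 25.7 CPM after irradiation and 1.43, 4.04, 2.63 and 5.76 CPM with LPS. Of 12 mRNA decay genes 6 were higher with LPS (50%, beside 19.6% of all genes) and 2 after irradiation (16.7%, beside 19%). Zfp36l1 and Arid5a were among the former (1.66 ± 0.09 and 2.31 ± 0.15), and the ribonuclease genes Zc3h12c and Zc3h12d were the latter (-2.18 ± 0.80, a call lost when single libraries were left out, and -2.73 ± 0.28).

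Targets of the glucocorticoid receptor were mostly higher with LPS. 10 of 19 were higher in sham LPS, 3 in irradiated PBS (Nr3c1, Rgs2 and Ypel2), and 13 rose with LPS against sham PBS where 3 rose with irradiation. Fkbp5, a chaperone of the receptor and a standard reporter of its activity, stood at 97.8, 70.4, 58.8 and 90.2 CPM in sham LPS and 9.14, 4.20, 3.29 and 2.86 CPM in irradiated PBS. The irradiated range overlapped that of sham PBS (4.17, 2.25, 4.48 and 4.13 CPM), and the sham LPS libraries stood apart from both. Tsc22d3, which encodes the glucocorticoid-induced leucine zipper, differed by 1.24 ± 0.24 and the clock gene Per1 by 2.44 ± 0.49. Nr3c1, the receptor gene, was lower with LPS, at 66.8, 55.0, 48.6 and 46.9 CPM against 117, 111, 98.0 and 79.7 CPM. Some members, such as Cebpb and Mt2A, also respond to cytokines, and no hormone level is among the data.

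Type I interferon genes were raised in both states and interferon gamma genes in more members with LPS. Of 42 type I interferon genes 10 were higher in sham LPS and 12 in irradiated PBS (23.8% and 28.6%, beside 19.6% and 19% of all genes), and the median difference was 0.06 (-0.14 with library totals alone). Against sham PBS 20 members rose with LPS and 24 with irradiation. The list mean was even across irradiated PBS libraries, at 5.30 to 5.51 log2 CPM, and uneven across sham LPS libraries, at 4.27, 5.04, 5.91 and 4.93. Sham LPS library 1 was thus within the sham PBS range of 3.79 to 4.27. The count higher in sham LPS was 6 without sham LPS library 3, and at most 13 with another single library left out. Lgals3bp, a secreted glycoprotein induced by interferon, stood at 1005, 1032, 898 and 935 CPM after irradiation and 179, 205, 239 and 202 CPM with LPS. The antiviral genes Oas2 (-3.14 ± 0.71), Zbp1 (-1.86 ± 0.35) and Bst2 (-1.33 ± 0.21) were higher after irradiation as well. Eif2ak2, the kinase PKR, and Parp9 were higher with LPS, by 1.05 ± 0.18 and 0.75 ± 0.09.

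The interferon gamma list leaned to LPS, with 12 of 18 members higher there and 2, Ciita and Cxcl9, higher after irradiation. Against sham PBS 12 rose with LPS and 8 with irradiation, at medians of 1.38 and 0.53. Irf1, an early transcription factor of the response, stood at 410.1, 409.5, 596 and 395 CPM in sham LPS and 70.7, 70.7, 102 and 94.8 CPM in irradiated PBS. Irradiated libraries overlapped sham PBS (79.7 ± 10.8 CPM). The guanylate-binding protein Gbp7 was 2.87-fold, the pterin enzyme Gch1 5.66-fold and the adhesion molecule Icam1 4.19-fold higher with LPS. Nos2, inducible nitric oxide synthase, stood at 8.32, 18.7, 22.0 and 18.4 CPM in sham LPS and 5.90, 0.567, 0 and 1.45 CPM in irradiated PBS, where library 1 was the highest, and its call was lost with limma voom.

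Class II antigen presentation was mostly higher after irradiation. For class II, 9 of 16 genes were higher in irradiated PBS and 5 in sham LPS, and the chains that bind peptide were among those higher in irradiated PBS. Cd74, the invariant chain, stood at 10326, 9157, 10507 and 10275 CPM in irradiated PBS, 1203, 2217, 1927 and 2142 CPM in sham LPS and 2864, 3355, 2315 and 2851 CPM in sham PBS. Cd74 rose after irradiation (1.82 ± 0.15) and fell with LPS (-0.60 ± 0.15), and no library of any group overlapped another group's. RT1-Da and RT1-Ba, which encode alpha chains of the rat class II molecules, were 4.82-fold and 5.17-fold higher after irradiation, and the class II transactivator Ciita stood at 17.5, 12.3, 20.6 and 13.1 CPM against 1.86, 7.92, 5.44 and 2.68 CPM. RT1 genes are close paralogs, so reads may be split between them. Toward LPS were the costimulatory genes Cd40 (1.52 ± 0.13) and Cd80 (0.55 ± 0.16, a call lost without irradiated PBS library 1), the protease Ctss (0.86 ± 0.09) and the peptide exchange chains RT1-DMa and RT1-DMb (0.87 ± 0.13 and 0.49 ± 0.09). Cd74 and class II chains are abundant in border-associated macrophages, whose summed markers were 1512 to 1899 CPM in irradiated PBS and 577 to 1174 CPM in sham LPS, and their part in this result was not tested. Without both neural-rich libraries the counts were 9 and 5. Class I was nearer parity, with 3 of 16 higher with LPS (18.8%, beside 19.6% of all genes) and 4 after irradiation (25%, beside 19%). The count after irradiation was 2 without sham LPS library 1, 2 or 4 or irradiated PBS library 3 or 4 and without both neural-rich libraries. The peptide transporter Tap1 stood at 214, 271, 333 and 233 CPM in sham LPS against 78.7, 92.6, 82.9 and 85.3 CPM, and the class I transactivator Nlrc5 differed by 1.46 ± 0.23.

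**Figure D4:**
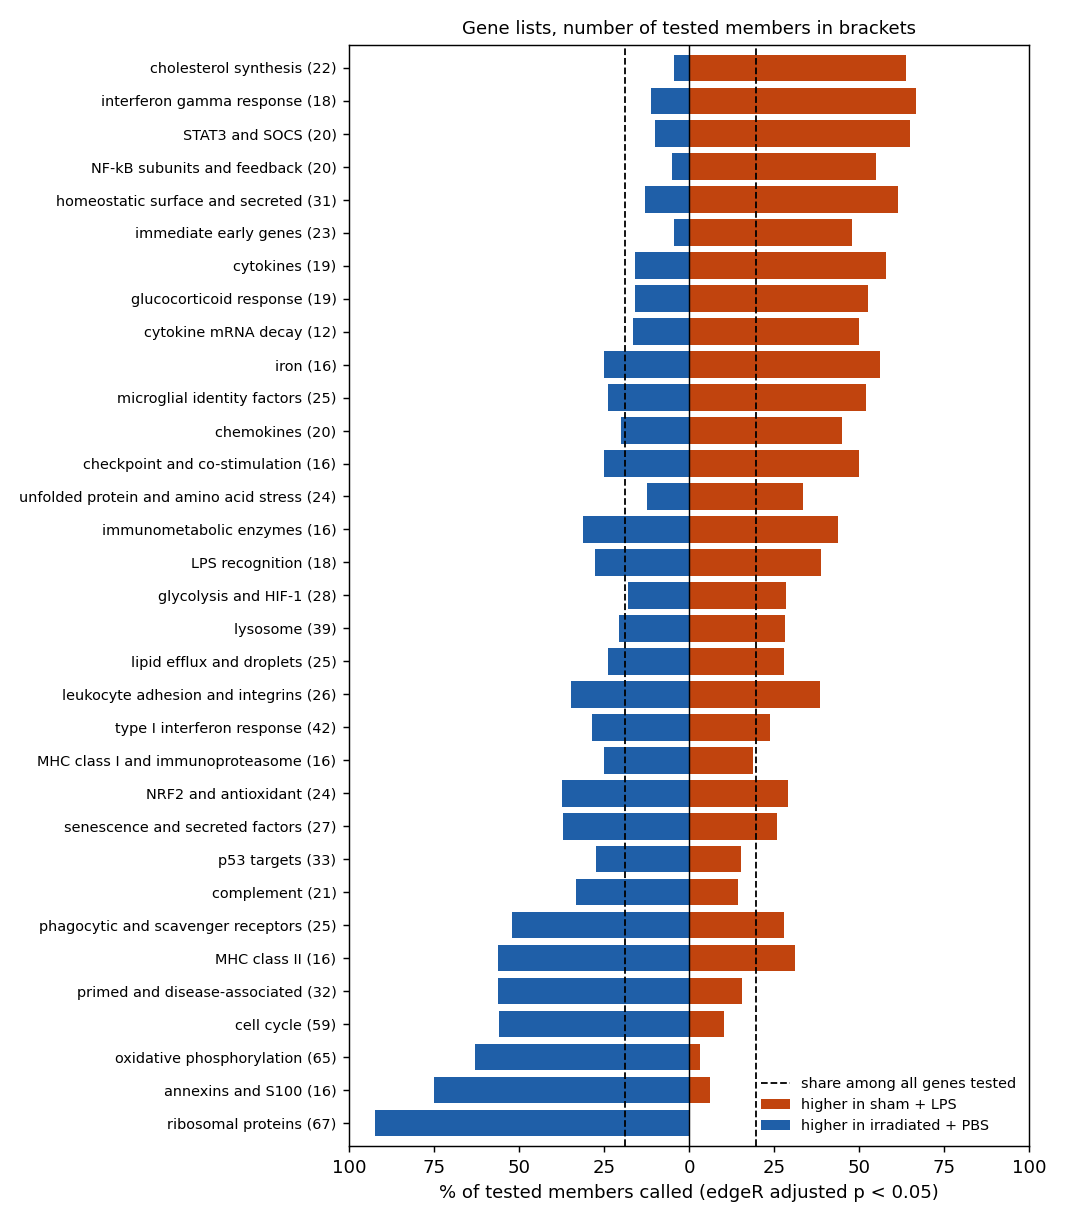
Percentage of the tested members of each gene list called higher in sham LPS (orange, to the right) or higher in irradiated PBS (blue, to the left), with dashed lines at the shares among all 12308 genes tested (19.6% and 19%). Marker lists for other cells are not drawn. Interferon gamma, STAT3 and cholesterol synthesis lists extend furthest to the LPS side, and ribosomal proteins, annexins and S100, and oxidative phosphorylation furthest to the irradiated side.

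Homeostatic microglial genes were lower after irradiation than with LPS. Of 31 tested, 19 were higher in sham LPS and 4 (Tyrobp, Itgam, Aif1 and Hpgds) in irradiated PBS. Against sham PBS, 22 fell after irradiation (10.6% of all genes fell), at a median of -0.87, and 11 fell with LPS (15.4%), at a median of -0.33. With library totals alone the split between the states was 15 and 8. Tmem119 stood at 5461, 6543, 4074 and 7194 CPM in sham LPS, overlapping the sham PBS values of 4921, 4632, 6621 and 4362 CPM, and at 1462, 2519, 2293 and 1784 CPM in irradiated PBS. Cx3cr1, the fractalkine receptor, stood at 10831, 11598, 11380.1 and 10891 CPM against 6858, 7922, 8359.8 and 7908 CPM. It fell in both states, by 0.38 with LPS and by 0.90 with irradiation, in ranges that did not overlap. Csf1r, the receptor microglia need to survive, stood at 13054, 13590.4, 12046 and 12461 CPM against 7489, 8516, 8758 and 7961 CPM, and with LPS it did not pass against sham PBS (-0.15 ± 0.07). P2ry12, the purinergic receptor that guides processes to injury, was not among them: it fell in both states, the libraries overlapped at 429, 319.7, 298 and 255 CPM with LPS and 245, 297, 239.9 and 241 CPM after irradiation, and the difference of 0.35 ± 0.18 did not pass (95% interval -0.04 to 0.73, adjusted p = 0.15). Cst3, a secreted homeostatic marker, differed by 0.85 ± 0.10, and the fructose transporter gene Slc2a5 rose with LPS (0.37 ± 0.11) and fell after irradiation (-0.83 ± 0.11).

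Transcription factors of microglial identity were split by member. Sall1, which holds microglia in their resident state, stood at 276, 341, 266 and 271 CPM in sham LPS, 165, 185, 182 and 189 CPM in irradiated PBS and 369, 399, 384 and 377 CPM in sham PBS, an order of sham PBS, sham LPS and irradiated PBS without overlap. 13 of 25 factors were higher with LPS (52%, beside 19.6% of all genes) and 6 after irradiation (24%, beside 19%). The oxysterol receptor gene Nr1h3 (-1.59 ± 0.44) and Maf (-0.81 ± 0.09) were higher after irradiation, and Maf fell with LPS against sham PBS (-0.99 ± 0.09). Tal1 (1.88 ± 0.19), Skil (1.34 ± 0.11), an inhibitor of SMAD signalling, Runx1 (1.82 ± 0.27) and Cebpb (3.21 ± 0.39) were higher with LPS. Spi1, which encodes PU.1, varied widely within groups: 16.0, 35.8, 42.1 and 156 CPM with LPS and 38.2, 32.5, 125 and 76.3 CPM after irradiation gave a difference of -0.13 ± 0.72.

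Primed and disease-associated genes were mostly higher in the irradiated libraries. 18 of 32 tested were higher in irradiated PBS and 5 in sham LPS (Cd63, Ctsd, Ctsl, Ch25h and Csf1), and the median difference was -1.29. Against sham PBS 20 rose with irradiation, at a median of 1.88, and 8 with LPS, at a median of -0.08. Gpnmb, a lysosomal glycoprotein of lipid-laden phagocytes, stood at 952, 835, 513 and 384 CPM in irradiated PBS and 27.3, 35.5, 21.3 and 24.2 CPM in sham LPS. Clec7a, the beta-glucan receptor dectin 1, stood at 612, 614, 410.4 and 362 CPM against 15.7, 42.9, 25.3 and 30.9 CPM. For both, sham LPS libraries overlapped sham PBS (39.5 ± 6.27 and 27.2 ± 2.75 CPM) and every irradiated library was well above. Itgax, which encodes CD11c, and Lgals3, which encodes galectin 3, rose in both states to unequal levels: Itgax stood at 140.4, 129, 89.7 and 84.8 CPM after irradiation and 20.9, 34.6, 32.8 and 19.2 CPM with LPS. Lgals3 stood at 135, 122, 90.1 and 66.6 CPM against 6.02, 18.5, 9.65 and 8.28 CPM. In both genes the ranges of the states were separate.

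Cybb, the catalytic subunit of the phagocyte NADPH oxidase, was 7.64-fold higher after irradiation, and the matrix protease Mmp12 20.9-fold. Lilrb4, an inhibitory receptor, stood at 59.8, 83.8, 46.0 and 73.3 CPM against 2.61, 8.93, 6.26 and 10.8 CPM. Ch25h, which makes 25-hydroxycholesterol and is often listed with these genes, had the opposite pattern, at 1613, 1762, 3251 and 2024 CPM with LPS and 359.5, 336, 408 and 268 CPM after irradiation. Apoe did not pass between the states (0.19 ± 0.09, 95% interval 0.01 to 0.37, adjusted p = 0.091), at 14906, 14050.1, 14147 and 15874 CPM with LPS and 12796, 11364, 15074 and 12448 CPM after irradiation. It was called higher with LPS by limma voom and without irradiated PBS library 3 (0.27). Trem2 was higher with LPS by 0.25 ± 0.09, with overlapping libraries and a call lost when single libraries were left out. Spp1 differed by -0.13 ± 0.91 and did not pass, at under 3 CPM in all 12. Monocyte markers moved with this list: Lyz2, which the 2 lists share, stood at 20204, 18900.3, 13176 and 14164 CPM after irradiation against 2421, 3348, 3380.4 and 3009.5 CPM, the monocyte chemokine receptor Ccr2 at 35.5, 37.8, 58.0 and 43.9 CPM against 3.10, 6.51, 1.58 and 4.31 CPM, and 10 of 18 monocyte markers were higher in irradiated PBS and 3 in sham LPS. Their part in the result was not tested. Without both neural-rich libraries 18 primed genes were higher in irradiated PBS and 5 in sham LPS.

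The starts of Gpnmb, Itgax and Cd68 are shown because these genes of the irradiated side share an AP-1 motif, TGANTCA (in capitals), which 6.99% of all promoters held within 250 bases. They lie at chr4:79340994-79341093 (plus), chr1:192149946-192150045 (plus) and chr10:54882515-54882646 (minus) in RefSeq GRCr8.
Gpnmb: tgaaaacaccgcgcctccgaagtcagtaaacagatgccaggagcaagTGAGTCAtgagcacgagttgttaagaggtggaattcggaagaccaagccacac
Itgax: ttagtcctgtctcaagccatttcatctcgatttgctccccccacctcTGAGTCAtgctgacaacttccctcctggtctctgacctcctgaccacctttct
Cd68: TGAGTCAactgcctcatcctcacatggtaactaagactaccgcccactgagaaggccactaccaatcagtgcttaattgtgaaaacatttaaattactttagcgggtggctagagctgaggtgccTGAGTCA
They were picked after 12 motifs had been searched on both strands, and the other genes of the irradiated side were not counted. The motif is not particular to that side. Of the 17 promoters found for the NF-kB list, whose genes were mostly higher with LPS, 3 held it (17.6%: Nfkb2, Nfkbie and Tnfaip3).

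Receptors for dying cells differed in direction between the states. Mertk, the receptor for Gas6 and protein S, stood at 1221, 1397, 1492 and 1067 CPM in sham LPS and 449.7, 483, 574 and 467 CPM in irradiated PBS. Axl, its relative, stood at 33.1, 48.6, 26.3 and 23.7 CPM and 563, 591, 398 and 366 CPM. Mertk rose with LPS (0.34 ± 0.12) and fell after irradiation (-1.05 ± 0.12), and Axl fell with LPS (-0.87 ± 0.22) and rose after irradiation (3.00 ± 0.23), with no overlap between the states in either gene. Of their ligand genes Pros1 was higher with LPS (0.81 ± 0.12) and Gas6 after irradiation (-1.20 ± 0.14). Havcr1, a phosphatidylserine receptor, was at 0 in all 4 sham LPS libraries and at 12.9, 10.8, 9.24 and 6.47 CPM in irradiated PBS, at least 215-fold higher against a floor of 3 counts over the group. In all, 13 of 25 phagocytic and scavenger receptors were higher in irradiated PBS (52%, beside 19% of all genes) and 7 in sham LPS (28%, beside 19.6%). Several of the former are also border-associated macrophage markers (Stab1, Mrc1 and Colec12). The lysosome list was not one-sided, with 11 of 39 higher with LPS (28.2%, beside 19.6% of all genes) and 8 after irradiation (20.5%, beside 19%). Its median was -0.01, and with library totals alone the split was 9 and 16. The count of 8 after irradiation was 5 without sham LPS library 1 or irradiated PBS library 2 or 3. Its most different member was Cd68, at 632, 589.7, 511 and 446 CPM after irradiation and 82.2, 123, 104 and 109 CPM with LPS, while the cathepsins Ctss and Ctsk were higher with LPS (0.86 ± 0.09 and 1.41 ± 0.17). Of 21 complement genes 7 were higher after irradiation (33.3%, beside 19% of all genes), led by Cd59 (-2.13 ± 0.25) and Cfd (-2.18 ± 0.36). With LPS 3 were higher (14.3%, beside 19.6%), among them C1qb at 8340.3, 7646, 8151 and 8425 CPM against 4942, 5101, 5896 and 5679 CPM. The count after irradiation was 4 without sham LPS library 4 or irradiated PBS library 3.

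Annexins and S100 proteins, calcium-dependent membrane and cytoskeletal adaptors, were mostly higher after irradiation. 12 of 16 were higher in irradiated PBS and 1, Anxa3, in sham LPS, and 0 rose with LPS against sham PBS in edgeR, at an adjusted or an unadjusted p under 0.05. Anxa6 stood at 97.5, 86.6, 67.8 and 80.6 CPM in irradiated PBS and 9.56, 11.2, 8.77 and 11.4 CPM in sham LPS. Anxa5, which binds phosphatidylserine, stood at 61.7, 59.9, 56.7 and 52.9 CPM against 3.54, 6.63, 8.89 and 9.78 CPM. In both genes every irradiated library was well above any sham LPS library. Without both neural-rich libraries 8 members were higher in irradiated PBS. The secreted protease urokinase was also higher after irradiation: Plau stood at 399, 287, 228 and 178 CPM against 22.7, 16.2, 17.0 and 16.0 CPM and its receptor gene Plaur at 60.5, 57.3, 47.3 and 42.7 CPM against 4.28, 6.23, 5.79 and 14.3 CPM. Plaur also rose with LPS (1.62 ± 0.33), and Plau did not pass there (-0.53 ± 0.24). Adhesion genes were divided, 10 of 26 toward LPS (38.5%, beside 19.6% of all genes) and 9 toward irradiation (34.6%, beside 19%). Icam1, the ligand of leukocyte integrins, stood at 362, 364, 360.0 and 271 CPM with LPS and 73.3, 82.9, 92.1 and 75.7 CPM after irradiation. The integrin genes Itga4 and Itgal differed by -3.79 ± 0.24 and -1.75 ± 0.19. Checkpoint and co-stimulation genes divided too, 8 of 16 higher with LPS (50%, beside 19.6% of all genes) and 4 after irradiation (25%, beside 19%). Havcr2 (TIM-3) stood at 983, 1008, 1199 and 1098 CPM with LPS against 263, 319, 358 and 303 CPM. Its ligand gene Lgals9 stood at 8.69, 10.7, 17.5 and 20.7 CPM against 54.1, 64.9, 53.5 and 58.0 CPM.

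Damage-response genes differed in both directions. Of 33 p53 targets 9 were higher in irradiated PBS (27.3%, beside 19% of all genes) and 5 in sham LPS (15.2%, beside 19.6%), and the median was -0.12. Cdkn1a, the cell cycle inhibitor p21, stood at 43.1, 24.7, 64.0 and 50.1 CPM after irradiation and 14.1, 24.0, 22.0 and 19.0 CPM with LPS, against 3.87 ± 0.988 CPM in sham PBS. It rose in both states, and the irradiated libraries were the higher ones, number 2 by the least. Gadd45g and Btg2, which respond to cytokines as well as to p53, were higher with LPS (2.57 ± 0.22 and 2.65 ± 0.12). Tp53inp1 fell with LPS (-3.51 ± 0.46) and did not pass after irradiation against sham PBS (0.49 ± 0.39), and stood 16.0-fold higher after irradiation than with LPS. Cdkn2a, a senescence gene, was at 0 in sham LPS and at 0.317, 0.454, 0.786 and 0.52 CPM in irradiated PBS, at least 12.2-fold higher but on 43 counts in all. Of 27 senescence and secreted factors 10 were higher after irradiation (37.0%, beside 19% of all genes) and 7 with LPS (25.9%, beside 19.6%). Hgf, at 6.98, 10.4, 6.34 and 4.09 CPM against 0, 0.225, 0.0585 and 0.224 CPM, was among the former and Hbegf (2.64 ± 0.24) among the latter.

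Cell cycle genes were higher in the irradiated libraries, 33 of 59 against 6 toward LPS, at a median of -0.91. Against sham PBS 26 rose with irradiation and 7 with LPS. The topoisomerase gene Top2a stood at 17.1, 16.6, 20.1 and 14.9 CPM after irradiation and 3.41, 11.3, 7.60 and 2.46 CPM with LPS, and the centromere histone Cenpa at 11.0, 10.9, 12.4 and 11.5 CPM against 2.61, 3.03, 3.45 and 2.63 CPM. Neither gene's ranges overlapped, yet Mki67, the usual proliferation marker, did: 20.8, 19.6, 16.2 and 14.2 CPM and 18.9, 15.5, 11.3 and 8.00 CPM gave a difference of -0.40 ± 0.30 (adjusted p = 0.33). The replication licensing gene Cdc6 was at 0 in all sham LPS libraries, at least 59.5-fold lower. Ccnd2 (1.11 ± 0.10) and Aurka (1.01 ± 0.13) were higher with LPS.

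Ribosomal protein genes were higher after irradiation almost throughout. 62 of 67 were higher in irradiated PBS and 0 in sham LPS in edgeR (also 0 at an unadjusted p under 0.05), over log2 differences of -1.26 to -0.16. Against sham PBS 65 rose with irradiation, at a median of 0.84, and 20 with LPS, at 0.13. Rplp0, of the ribosomal stalk, stood at 1416, 1403, 1385 and 1261 CPM in irradiated PBS and 543, 615, 673 and 616 CPM in sham LPS, where sham PBS held 593 ± 28.2 CPM. Rps19 was 2.39-fold and Rps18 2.09-fold higher after irradiation, and their sham LPS and sham PBS ranges overlapped. Respiratory chain and ATP synthase genes followed at a smaller size: 41 of 65 were higher in irradiated PBS and 2, Ndufa3 and Cyc1, in sham LPS, at a median of -0.34. Cox6a1 stood at 252, 215, 199.7 and 236 CPM against 159, 145, 157 and 159 CPM. Without both neural-rich libraries the respiratory count was 31. Many ribosomal genes have near-identical pseudogenes, so their counts are uncertain where reads could be split.

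Glycolysis as a list was close to parity, with 8 of 28 higher with LPS (28.6%, beside 19.6% of all genes) and 5 after irradiation (17.9%, beside 19%). Its median of 0.16 was -0.04 with library totals alone. The count toward LPS was 5 without irradiated PBS library 3, and 5 and 3 genes were called toward LPS and irradiation without both neural-rich libraries. The exit of the pathway leaned to LPS: lactate dehydrogenase Ldha stood at 578, 565, 869 and 724 CPM with LPS and 286, 281, 295 and 311 CPM after irradiation, and the lactate exporter Slc16a3 at 135, 179, 189 and 151 CPM against 53.6, 51.7, 38.1 and 34.4 CPM. Ldha in irradiated PBS did not pass against sham PBS (0.25 ± 0.12), and Slc16a3 fell there (-0.86 ± 0.17). The glucose transporter Slc2a1 and Hif1a were higher with LPS (1.28 ± 0.15 and 0.70 ± 0.09), while the hexokinase isoform Hk3 was higher after irradiation (-3.17 ± 0.49). Arginine and pterin enzymes differed by step. Gch1, the first enzyme of tetrahydrobiopterin synthesis, stood at 24.1, 21.7, 41.3 and 33.7 CPM with LPS and 4.76, 4.65, 5.95 and 5.91 CPM after irradiation, and the next enzyme, Pts, at 5.09, 4.16, 3.68 and 4.14 CPM and 9.33, 11.0, 13.6 and 9.00 CPM, the reverse order. The polyamine enzyme gene Odc1 was higher after irradiation (-1.67 ± 0.24), though it rose in both states.

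Cholesterol synthesis genes were higher with LPS than after irradiation, where many had fallen. 14 of 22 genes were higher in sham LPS and 1, Mvk, in irradiated PBS. 12 fell after irradiation and 0 rose (edgeR, also 0 at an unadjusted p under 0.05), and with LPS 5 rose and 4 fell. Cyp51, the lanosterol demethylase gene, stood at 164, 209, 245 and 225 CPM with LPS, 63.3, 88.3, 77.6 and 91.8 CPM after irradiation and 142 ± 27.3 CPM in sham PBS, a difference of 1.39 ± 0.15 between the states. Hmgcs1 (1.18 ± 0.12) and Sqle (1.11 ± 0.11) were higher with LPS in all 4 libraries. Efflux and storage genes were mixed, 7 of 25 toward LPS (28%, beside 19.6% of all genes) and 6 toward irradiation (24%, beside 19%). Their median was 0.08 (-0.12 with library totals alone). The droplet coat gene Plin2 stood at 143, 136, 119 and 105 CPM after irradiation and 39.2, 51.0, 44.3 and 53.3 CPM with LPS, having risen and fallen respectively. Abcg1 (-0.86 ± 0.11) and the cholesterol-esterifying enzyme gene Soat1 (-0.75 ± 0.13) were higher after irradiation.

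Several iron import and stress genes were higher with LPS. Tfrc, the transferrin receptor, stood at 85.2, 73.8, 98.5 and 84.8 CPM with LPS and 26.3, 25.3, 20.8 and 27.2 CPM after irradiation, having risen in one and fallen in the other. Steap4, a ferrireductase, was higher with LPS (1.25 ± 0.12), and the ferroxidase Heph after irradiation (-2.34 ± 0.35). The ferritin heavy chain Fth1 did not pass (-0.10 ± 0.08, called higher after irradiation with library totals alone) and the light chain Ftl1 was higher after irradiation (-0.59 ± 0.10). Of 16 iron genes 9 were higher with LPS (56.2%, beside 19.6% of all genes) and 4 after irradiation (25%, beside 19%). Nfe2l2, which encodes NRF2, stood at 434, 417, 517 and 436 CPM against 166, 169, 161 and 152 CPM, yet its list did not follow as one. Of its 24 members 7 were higher with LPS (29.2%, beside 19.6% of all genes) and 9 after irradiation (37.5%, beside 19%). Txnrd1 (1.66 ± 0.18) was among the former and Gpx1 (-0.77 ± 0.10) among the latter. Atf4, the amino acid stress factor, stood at 196, 211, 248 and 219.7 CPM with LPS and 74.9, 85.0, 89.2 and 90.3 CPM after irradiation, and its target Chac1 at 8.01, 8.54, 9.59 and 6.71 CPM against 0.698, 1.59, 0.639 and 0.929 CPM. Another target, Asns, rose in both states and did not pass between them (0.05 ± 0.32).

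**Figure D5:**
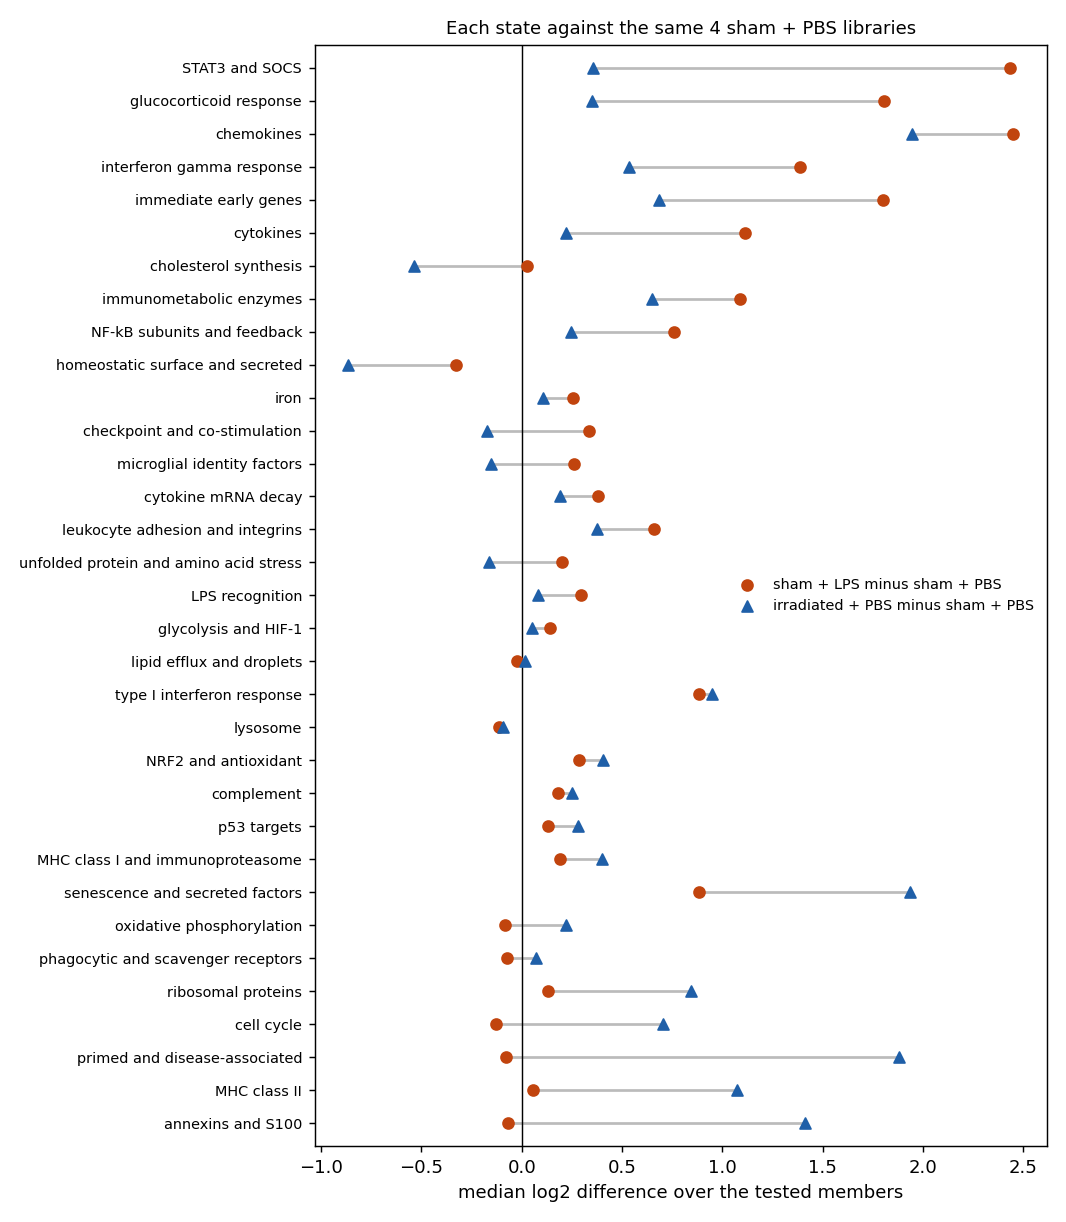
Median log2 difference over the tested members of each list for sham LPS minus sham PBS (orange circles) and irradiated PBS minus sham PBS (blue triangles), joined by a line. Both comparisons use the same 4 sham PBS libraries. Marker lists for other cells are not drawn. STAT3 and glucocorticoid lists are separated with LPS higher, primed and annexin lists with irradiation higher, and type I interferon medians nearly coincide (0.88 and 0.95).

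Some genes moved to a like level in both states. Among genes called against sham PBS with the same sign in both, and with a 95% interval of the direct difference within a 2-fold change, the 8 largest rises were in Sdc1, Srgn, Atf3, Gda, Slc28a2, Asns, Plscr2 and AC128859.3. Srgn, which encodes the granule proteoglycan serglycin, stood at 73.7, 102, 101 and 204 CPM with LPS, 75.9, 92.7, 159 and 145 CPM after irradiation and 15.7 ± 2.14 CPM in sham PBS. Sdc1, which encodes syndecan 1, stood at 21.6, 26.1, 49.3 and 23.7 CPM and 29.2, 31.2, 20.9 and 18.7 CPM, over 3.05 ± 0.434 CPM. Libraries of the 2 states overlapped in both genes, with differences of 0.02 ± 0.29 and 0.27 ± 0.23, and the 95% intervals ran -0.59 to 0.63 and -0.21 to 0.75. Of the others Plscr2 did pass, at -0.52 ± 0.18, and lost the call without sham LPS library 1, 2 or 3 or irradiated PBS library 2. The 8 largest falls were in Il6st, Eva1a, Med12l, Pamr1, Igsf10, Fam72a, Adgra3 and Col15a1. Adgra3 stood at 17.4, 16.8, 11.4 and 23.8 CPM and 14.8, 14.0, 19.5 and 17.0 CPM against 43.5 ± 1.63 CPM in sham PBS, and Col15a1 at 18.5, 15.3, 12.0 and 20.9 CPM and 14.0, 20.0, 16.2 and 20.2 CPM against 41.8 ± 3.88 CPM. Eva1a was the member that passed between the states (-0.66 ± 0.14), lower with LPS. As both states are measured against the same sham PBS libraries, a low or high value there would move both differences together.

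Markers of other cells completed the comparison. Of 10 endothelial markers 4 were higher in sham LPS (40%, beside 19.6% of all genes) and 2 in irradiated PBS (20%, beside 19%). Their summed CPM was 498 to 638 in sham LPS, 284 to 376 in irradiated PBS and 597 to 703 in sham PBS. Of 15 border-associated macrophage markers 11 were higher in irradiated PBS and 1, Cd209a at under 1 CPM and with a call lost when single libraries were left out, in sham LPS. Folr2, which marks these cells, stood at 139, 139, 149 and 99.3 CPM after irradiation and 20.6, 27.6, 29.1 and 21.9 CPM with LPS, where it did not pass against sham PBS (25.0 ± 4.16 CPM). Pf4 stood at 109, 131, 123 and 127 CPM against 49.4, 38.5, 45.4 and 30.7 CPM. T and NK cell markers rose in both states, 9 of 23 with LPS and 20 with irradiation, and 10 were higher in irradiated PBS than in sham LPS, or 5 without both neural-rich libraries and 6 without irradiated PBS library 4. Cd3e stood at 2.54, 1.59, 1.28 and 5.50 CPM against 0.31, 0.281, 0.0585 and 0.112 CPM, and Klrk1, which encodes the receptor NKG2D, at 43.8, 43.7, 38.3 and 78.6 CPM against 2.11, 7.30, 16.3 and 13.9 CPM. Of 9 B cell markers 4 were higher in irradiated PBS (44.4%, beside 19% of all genes) and 0 in sham LPS. Ighm fell with LPS to 6.45, 8.03, 8.89 and 5.26 CPM from 65.9 ± 12.7 CPM in sham PBS and stood at 142, 93.7, 126 and 129.5 CPM after irradiation. Cd79a, a B cell receptor subunit, was also higher in irradiated PBS (-1.73), a call lost with limma voom and without both neural-rich libraries. It stayed under 5 CPM in all 12 libraries, and Pax5 was at 0. Neutrophil markers did not separate the states, with 1 of 10 called (Lcn2, higher with LPS, not called by limma voom) and Mpo, Elane and Prtn3 at 0. Of the neural lists the neuron list gave 0 calls in edgeR (1 member, Slc17a7, at an unadjusted p under 0.05, and 1 call in DESeq2). Toward irradiation edgeR called Slc17a7 and Rbfox3 without sham LPS library 2, Slc17a7 without irradiated PBS library 3, and Vsnl1 with the replicate block or in the fit of 12 libraries. The astrocyte and oligodendrocyte lists gave 1 call in each direction. Gfap, one of those, stood at 38.3, 6.98, 5.55 and 10.5 CPM in irradiated PBS, with library 1 the highest, and 2.81 to 7.2 CPM in sham LPS. Without that library the difference was -0.79 and not called.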

How the data were processed

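RNA of sorted microglia was sequenced, and the authors deposited raw counts per gene, read counts that, per the submitters' processing notes, came from FastQC 0.11.9, fastp 0.23.2 and HTSeq 2.0.2 on build mRatBN7.2. Not given in the sources used here are the aligner, the annotation and the strand setting, and overlapping and antisense genes cannot be told apart. The matrix held 21842 symbols. Genes passing edgeR's filter on low counts (12308) were fitted with edgeR 4.0.16 in R 4.3.3 (TMM scaling, quasi-likelihood test with robust moderation) over all 16 libraries with 1 coefficient per group, which share 1 estimate of the spread. The contrast was sham LPS minus irradiated PBS, and both were also set against sham PBS. Genes at a Benjamini-Hochberg adjusted p under 0.05 over all genes were called. Differences are log2 ± SE, and CPM use TMM-scaled library sizes. On simulated counts for this contrast (12095 genes), 67, 67 and 66 genes were changed 1.5-, 2- and 4-fold. The test recovered 29.9%, 50.7% and 74.2% of them, and 4 of 107 calls were false. Far fewer genes were changed there than were called in the data (4748), so these shares do not carry over to the real contrast. The 43 gene lists held 1162 names, of which 1086 matched by symbol, 10 by synonym and 66 not. Members and lists were chosen with earlier results of these data known. Named genes were the 12 largest called differences each way at a mean log2 CPM of at least 3 without overlap, up to 4 called members a list by smallest p, a fixed panel and 16 genes near parity. A few genes this rule selects are not reported here. These others were chosen after their values were seen: Aif1, Anxa3, Ccl22, Ccl4, Ccl5, Cd209a, Cd63, Cd80, Cdc6, Cdkn2a, Ciita, Csf1, Ctsd, Ctsl, Cxcl9, Cybb, Cyc1, Fth1, Ftl1, Gas6, Hk3, Hpgds, Il10ra, Il12b, Il1r2, Il6, Irak3, Itgam, Mki67, Mmp12, Mrc1, Mvk, Ndufa3, Nfkb2, Nos2, Nr1h3, Nr3c1, Nr4a1, Oas2, Osmr, Per1, Pros1, RT1-DMa, RT1-DMb, Rbfox3, Rgs2, Runx1, Slc17a7, Spi1, Spp1, Stab1, Tnfaip3, Tnfsf10, Tnfsf14, Tnip1, Top2a, Trem2, Tsc22d3, Tyk2, Tyrobp, Vsnl1, Zbp1 and Zc3h12c. Promoters (RefSeq, GRCr8, 27457 symbols) were searched over 250 bases before the start for 12 motifs on both strands. Alternatives, including limma 3.58.1 and DESeq2 1.42.0, are given in the closing section. Genes at 0 in a whole group are given as bounds against 3 counts over the group.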

Additional observations from a re-analysis of the deposited data

Results flagged for a closer look

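Among the 228 genes named or selected for the report, each examined in both groups of 4 (456 groups), 30 held a library whose gap to its nearest neighbour was a larger share of the group's range than Dixon's 95% critical value. Chance gives such a gap in about 1 in 20 groups. Irradiated PBS library 1 stood above the other libraries of its group in CPM of Cd209a (0.0634 against 0), Gfap (38.3 against 5.55 to 10.5), Lcn2 (2.41 against 0.393 to 0.595) and Mt2A (1.08 against 0.112 to 0.246) and stood below them in CPM of Slc2a5 (724 against 859 to 878) and Tnfaip3 (47.6 against 65.0 to 67.1). The Cd209a value rests on almost no reads, so its gap says little. Irradiated PBS library 2 stood above the other libraries of its group in CPM of P2ry12 (297 against 239.9 to 245) and stood below them in CPM of Pim1 (0.737 against 1.18 to 1.27). Irradiated PBS library 3 stood above the other libraries of its group in CPM of Gas6 (544 against 431 to 440.4), Nr1h3 (7.71 against 3.72 to 4.25) and Txnrd1 (23.9 against 14.7 to 16.1) and stood below them in CPM of Ccl2 (7.37 against 15.5 to 17.0). Irradiated PBS library 4 stood above the other libraries of its group in CPM of Klrk1 (78.6 against 38.3 to 43.8) and Tal1 (21.4 against 14.5 to 14.7) and stood below them in CPM of Cd63 (469 against 552 to 568) and Fth1 (2918 against 3126 to 3140.1). Sham LPS library 1 stood above the other libraries of its group in CPM of Plau (22.7 against 16.0 to 17.0) and stood below them in CPM of Cd59 (7.51 against 16.4 to 17.5). Sham LPS library 2 stood above the other libraries of its group in CPM of Sall1 (341 against 266 to 276) and stood below them in CPM of Cox6a1 (145 against 157 to 159). Sham LPS library 3 stood above the other libraries of its group in CPM of Bst2 (10.7 against 6.76 to 7.32), Cd40 (251 against 165 to 170.4), Irf1 (596 against 395 to 410.1), Osm (105 against 66.1 to 69.3) and Sdc1 (49.3 against 21.6 to 26.1). Sham LPS library 4 stood above the other libraries of its group in CPM of Asns (19.8 against 8.69 to 10.2), Cd79a (2.07 against 0.643 to 0.842), Igsf10 (19.3 against 8.48 to 9.18) and Zc3h12d (4.14 against 2.05 to 2.30) and stood below them in CPM of Icam1 (271 against 360.0 to 364).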

How the results depend on the processing

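Scaling moved the split between the directions. Library totals alone called 5054, 1505 higher in sham LPS and 3549 higher in irradiated PBS. A test against a fold of 1.5 called 1423, split 588 and 835, since a larger difference is required. The other settings called from 4007 (without both neural-rich libraries) to 5080 (DESeq2), and leaving out each replicate gave 4195 to 4471, with 2027 to 2309 higher in sham LPS and 2065 to 2203 in irradiated PBS. Counts per gene ID, an alternative chosen after seeing the data, called 5059 of 13608. Replicate numbers did not pair the libraries, as same-numbered libraries' deviations from their group means correlated at 0.168, -0.0948, 0.105 and 0.0630, and with the replicate number as a block 4877 genes were called. Not every library correlated best with its own number. Of 4780 single-gene values under alternatives 4594 kept direction and call, 118 lost the call, 21 gained it and 47 changed sign, and the cause was not tested. Those that changed sign were log2 differences near 0 that had not been called. With library totals alone it became -0.17 for AC128859.3, -0.10 for Adgra3, -0.00108 for Apoe, -0.15 for Asns, -0.15 for Slc28a2 and -0.18 for Srgn. With limma voom it became -0.24 for AC128859.3, -0.0939 for Asns, -0.0715 for Atf3, -0.14 for Slc28a2 and -0.047 for Srgn. With the replicate number as a block it became 0.18 for Spp1 and -0.0124 for Srgn. Without both neural-rich libraries it became -0.000263 for Ccl22, 0.11 for Ccl5, -0.26 for Slc28a2, 0.31 for Spp1 and -0.0667 for Srgn. Over single libraries left out it ran from -0.57 to 0.15 for Ccl5, -0.32 to 0.00812 for Gda, -1.12 to 0.35 for Spi1, -0.89 to 0.13 for Spp1, -0.30 to 0.34 for Slc28a2, -0.37 to 0.34 for AC128859.3 and -0.29 to 0.49 for Atf3. For the others it ran from -0.57 to 1.5 for Ccl22, -0.20 to 0.0494 for Col15a1, -0.0707 to 0.40 for Sdc1, -0.10 to 0.24 for Adgra3, -0.31 to 0.18 for Asns, -0.16 to 0.34 for Igsf10 and -0.36 to 0.20 for Srgn. Leaving out 1 library ended the call of Cd209a without sham LPS 2 or 3 or irradiated PBS 2, 3 or 4 (3.10 to 3.71), Cd63 without sham LPS 3 or irradiated PBS 4 (0.24 to 0.28), Cd80 without irradiated PBS 1 (0.45), Gfap without sham LPS 2, 3 or 4 or irradiated PBS 1 (-1.75 to -0.79), Hpgds without sham LPS 4 or irradiated PBS 3 (-0.60 to -0.56), Il12b without sham LPS 1, 2, 3 or 4 or irradiated PBS 1, 2 or 3 (-2.06 to -1.54), Mrc1 without sham LPS 3 or 4 or irradiated PBS 1, 2 or 3 (-0.84 to -0.73), Plscr2 without sham LPS 1, 2 or 3 or irradiated PBS 2 (-0.53 to -0.34), Trem2 without sham LPS 3 or 4 or irradiated PBS 1, 2 or 4 (0.16 to 0.26) and Zc3h12c without sham LPS 1, 3 or 4 or irradiated PBS 2, 3 or 4 (-2.19 to -1.76). Calls were gained for Apoe in 2, Ccl4 in 7, Fam72a in 1, Fth1 in 1, Il6st in 3, Nfkb2 in 1, Rbfox3 in 1, Slc17a7 in 3 and Vsnl1 in 2 of the alternatives. Of 1806 list counts under alternatives 155 moved by over 1.5 times. Depth limits genes under about 1 CPM, where Cd209a, Osmr and Cdkn2a lie, and the labels give no LPS dose or interval.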
